A study of Homo sapiens with 14 samples.

Results

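DEAD and DEAH box RNA helicases were examined for RNA base changes in 293FT cells, which derive from human embryonic kidney and express the large T antigen of SV40. The members were the protein-coding genes of GENCODE release 29 (GRCh38) whose names start with DDX or DHX: 55 genes, of which 39 are DDX and 16 are DHX. A called site, that is a position listed with mutated reads in at least 1 library, was found on the gene strand in 31 of them, and 24 had none. Together they held 108 of the 22358 distinct sites of the 14 libraries: 56 C-to-U sites, 43 A-to-I sites and 9 sites of other changes. C-to-U denotes a C read as T, and A-to-I denotes an A read as G, the trace left by inosine.

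The study asked whether a prime editor changes bases away from its guide. Groups were 3 libraries of cells given hA3A-BE3, 2 of cells given PE3 (replicates 2 and 3), and as controls 3 each of cells given Cas9, cells given EGFP and non-transfected cells. hA3A-BE3 is a cytosine base editor, a fusion of Cas9 nickase with human APOBEC3A, which deaminates cytosine in RNA as well as in single-stranded DNA. PE3 is a Cas9 nickase joined to a reverse transcriptase, given with a guide that carries the edit and with another guide for nicking the unedited strand. Every title begins with hRNF2, taken to be the target gene. The labels give the same protocol for every library: cells in the top 15% of fluorescence were sorted 40 hours after transfection, and total RNA was sequenced after depletion of ribosomal RNA. Non-transfected cells carry that text too, so how they were sorted is not clear from the labels. The labels do not say whether replicates came from different cultures, and the p-values cover the spread among the libraries at hand, which may be technical. The lists give reads at called sites and not expression levels, so the cell line was not checked against marker genes.

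RNA helicases of the DEAD and DEAH box families use ATP to open RNA duplexes or to strip proteins from RNA. They share a core of RecA-like folds, and the name comes from a motif, Asp-Glu-Ala-Asp or Asp-Glu-Ala-His, that takes part in ATP hydrolysis. A further motif, Ser-Ala-Thr, follows it and couples ATP use to unwinding. Most members work in the nucleus, in pre-mRNA splicing or in the building of ribosomes. Others act in translation, mRNA export and decay, in mitochondria, or in sensing foreign RNA. APOBEC3A deaminates cytosines that follow a U, with a known preference for a C at the end of a small hairpin loop.

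The sites that carry the main result are the 11 C-to-U sites, termed recurrent below, that all 3 hA3A-BE3 libraries shared and that no PE3 or control library listed. Each is printed as 21 bases of the spliced transcript, 5′ to 3′, from the GENCODE transcript sequences, with T for U. Capitals mark the edited C and the 3 bases before it, so the last capital is the edited base.
DHX38 R12X: ctcgatcCATCgattggaagg
DHX33 S288L: gccccttCTTCacaggacatc
DHX8 I994I: aaatgctCATCatgtctgtgc
DHX30 I662I: ttctgcaCATCgatgctcgcg
DHX38 I650I: gtgccatCATCatggacgagg
DHX9 L738L: aagtgaaACTCttcactgctc
DDX39A I314I: tcccggcCATCgccatccacc
DDX6 Q345X: taactccTCTCagcgagttga
DDX27 R337W: agcagctCTTCgggcagcgcc
DDX3X I471I: gtaccagCATCcatggagacc
DDX23 I765I: gggtggcCATCaccttcctca
Protein changes use the letter code of amino acids, in which X is a stop, and are numbered in the main transcript of each gene.

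C-to-U sites in helicase genes were found in hA3A-BE3 libraries only, among the 14 libraries. The hA3A-BE3 libraries held 23, 28 and 35 of them, spread over 15, 20 and 21 genes. Both PE3 libraries and all 9 control libraries held 0. In all, 26 of the 55 genes had such a site, led by the DHX genes DHX30 with 6 sites and DHX33 and DHX38 with 5 each.

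hA3A-BE3 libraries averaged 28.7 ± 6.03 sites (SD, n = 3), against 0 in controls (n = 9), a difference of 4.87 in log2(sites + 1). The two-sided exact permutation test over libraries gave p = 0.00909, the smallest value that 3 against 9 libraries allow, and an adjusted p of 0.0364 over 8 comparisons. Set against a floor of 3 sites over the 9 control libraries, the hA3A-BE3 mean was at least 86-fold higher. Genes with a C-to-U site numbered 18.7 ± 3.22 per hA3A-BE3 library against 0 (log2 difference 4.28, exact permutation p = 0.00909, adjusted p = 0.0364). Mapped bases, inferred from the depth columns, were 7.27, 5.87 and 8.87 Gb in hA3A-BE3 libraries, 3.26 and 7.6 Gb in PE3 libraries and 5.44 to 10.64 Gb in controls. With each control group taken alone the difference was the same size, but an exact permutation test of 3 against 3 libraries cannot go below p = 0.1.

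A site missing from a list was unedited, not covered, or under the limits of the calling, and the lists give no reads for such positions. The lowest values in the files were 2 mutated reads, an edited fraction of 5.02% and 3.01 reads per Gb. PE3 libraries listed 43 and 44 C-to-U sites over all genes and controls 42 to 53. A count of 0 among so few allows a share in helicase genes of up to 6.98% and 6.82% in PE3 libraries, and of up to 5.66% to 7.14% in controls. In hA3A-BE3 libraries the share was 0.920% (23 of 2499; Wilson 95% interval 0.614 to 1.38%), 0.548% (28 of 5113; 0.379 to 0.790%) and 0.543% (35 of 6446; 0.391 to 0.754%). These intervals overlap, and intervals and floors cover counting error only. A share the size of that in hA3A-BE3 libraries was therefore not detectable among the sites of the other libraries.

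**Figure D1:**
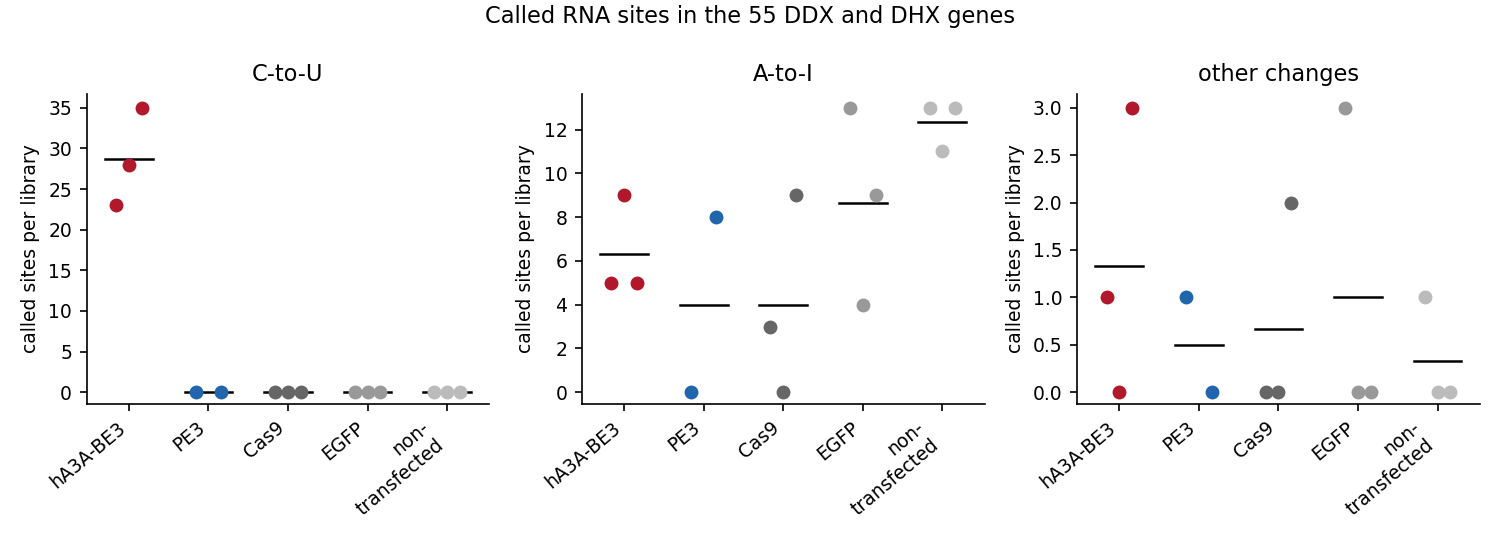
Called sites per library in the 55 DDX and DHX genes for C-to-U, A-to-I and all other changes; each point is a library, the groups run along the horizontal axis and the black line is the group mean. C-to-U counts were 23, 28 and 35 in hA3A-BE3 libraries and 0 in the other 11, while A-to-I counts were 5 to 9 in hA3A-BE3 libraries, 0 to 8 in PE3 libraries and 0 to 13 in controls, with the non-transfected libraries at 11 to 13.

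Gene by gene, 13 of the 31 helicase genes with a called site had more C-to-U sites with hA3A-BE3 than in controls. The test was the exact permutation test on log2(sites + 1), adjusted over all 5608 genes with a called site, and 21.6% of those genes passed it. The 13 were DDX3X, DDX6, DDX23, DDX27, DDX39A, DDX55, DHX8, DHX9, DHX30, DHX33, DHX37, DHX38 and DHX57, each at an exact permutation p = 0.00909 and an adjusted p of 0.0422. They are 41.9% of the 31 genes, but 20 of the 31, and 9 of the 13, had called sites in hA3A-BE3 libraries only. Those genes were counted through the group in which they are high, so the count is a description and not support for a difference. The call rests on the smallest p the design allows: with any of the 12 libraries left out, 0 helicase genes passed. No gene passed between PE3 libraries and controls by the same exact permutation test, in helicases or elsewhere (0.0% of 5608), and 0 genes had an unadjusted p under 0.05. The smallest p reached there was 0.0727, and an exact permutation test of 2 against 9 libraries cannot go below p = 0.0364. PE3 libraries listed only 43 and 44 C-to-U sites over all genes. With so few sites and adjustment over 5608 genes no gene could have passed, so this result cannot show that PE3 left genes unchanged.

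Recurrent sites were found in 10 of the 31 genes (32.3%), against 15.7% of the 5608 genes. As 20 of the 31 had called sites in hA3A-BE3 libraries only, this share too is a description and not support for a difference. A C-to-U site in at least 1 hA3A-BE3 library was found in 26 of the 31 (83.9%), against 83.3%. Of the 56 sites, 37 were called in 1 hA3A-BE3 library, 8 in 2 and 11 in all 3. Median covering reads were 48, 41.5 and 65 in these classes, so the recurrent sites were also the most deeply covered.

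The 15 splicing helicases held 18 C-to-U sites in 9 genes, and 83.3% of the 5608 genes with a called site held such a site. Of the 11 with a called site, 4 (DHX38, DHX8, DDX39A and DDX23) had a recurrent site and passed the gene test, where 15.7% and 21.6% of all 5608 genes did. Genes with called sites in hA3A-BE3 libraries only are among them, so these counts are a description. The recurrent sites of the 4 genes included those with the highest and the lowest mean level among all 11 recurrent sites, in DHX38 and DDX23. DHX38, the human counterpart of yeast Prp16, remodels the spliceosome at the second step of splicing. Its site R12X lay in exon 2 of 27 (chromosome 16, position 72096191, plus strand, coding) and turned an arginine codon into a stop after 11 residues, 0.897% of the 1227 residue protein. In hA3A-BE3 libraries 33.3%, 58.8% and 55.6% of 42, 17 and 27 covering reads carried U, a mean of 49.2% ± 13.9 (SD, n = 3). The Wilson 95% intervals of these libraries (21.01 to 48.5%, 36.01 to 78.4% and 37.3 to 72.4%) overlapped. This was the highest mean level among the helicase sites. The fraction counts reads over all sorted cells, so more edited cells and more editing per cell cannot be told apart.

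The other DHX38 recurrent site, I650I (exon 14, position 72104071), was synonymous and lay 2 codons before the DEAH box, which starts at codon 652. It was edited in 13.04%, 14.8% and 10.0% of reads, that is 3 of 23, 4 of 27 and 3 of 30 reads, a level with wide counting error. A further 3 DHX38 sites, R111W, R133W and R240W, were each called in 1 library at 6.38%, 8.82% and 21.7%.

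DHX8, the counterpart of yeast Prp22, releases spliced mRNA from the spliceosome. Its site I994I (chromosome 17, position 43520795, plus strand, exon 20 of 23) was edited in 15.8%, 37.2% and 21.3% of 57, 43 and 47 reads. That is a mean of 24.8% ± 11.1 (SD, n = 3), with replicate 2 highest. V1017V in the same exon, 69 bases downstream, and V312V were each called in 1 library, at 6.25% and 10.5%.

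DDX39A takes part in splicing and in mRNA export and is closely similar to DDX39B, so reads may be shared between them. Its I314I (chromosome 19, position 14409568, minus strand, exon 8 of 11) reached 9.09%, 7.55% and 13.9% of 88, 53 and 79 reads. DDX23, the helicase of the U5 particle, carried I765I (chromosome 12, position 48830637, minus strand, exon 17 of 17) at 8.70%, 6.25% and 5.44% of 69, 48 and 92 reads. Both were synonymous isoleucine changes, and their libraries overlapped in level. DDX39B had no called site.

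DDX46, which acts with the U2 particle in branch site selection, had a stop site, R521X, at 7.32% of 82 reads in replicate 2, 8 codons before its DEAD box. It also had I723I at 5.64% of 195 reads in replicate 3. A further site within its span lay outside its basic transcripts, in coding sequence of the overlapping gene C5orf24 (chromosome 5, position 134854910), and was edited in 12.5% of 32 reads in replicate 2. Which gene these reads came from was not tested, and without that site the log2 difference over all helicase genes was 4.85. DHX35 carried I295I at 16.7% of 18 reads in replicate 2 and DDX41 L170L at 6.56% of 61 reads in replicate 3. DDX17 and DDX5 had a 3' UTR site (7.41% and 6.10% in replicates 2 and 3) and a 5' UTR site (5.71% in replicate 2).

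Among 15 genes of ribosome biogenesis, 10 had a called site, 9 held 18 C-to-U sites, and DHX33 and DDX27 had a recurrent site. Of all 5608 genes with a called site, 83.3% had a C-to-U site in at least 1 hA3A-BE3 library and 15.7% a recurrent site. Genes with called sites in hA3A-BE3 libraries only are among the 10, so these counts are a description. DHX33 acts in ribosomal RNA synthesis and in translation initiation. S288L (chromosome 17, position 5456169, minus strand, exon 5 of 12) changed serine to leucine in 37.1%, 25% and 28.6% of 35, 24 and 28 reads, a mean of 30.2% ± 6.24 (SD, n = 3). It had neighbours on both sides: S287F lay 3 bases upstream in the transcript, at 11.4% of 35 reads, and L295L 22 bases downstream, at 11.1% of 36 reads, both called in replicate 1 only. F243F and R348C were each called in 1 library, at 16% and 8.11%. The 3 clustered sites read as follows.
DHX33 S287F: gaagcccCTTCttcacaggac
DHX33 S288L: gccccttCTTCacaggacatc
DHX33 L295L: tggtgttCCTCactgggcagg
The windows of S287F and S288L overlap, and both edited cytosines close a CTTC.

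DDX27 is needed for processing of ribosomal RNA precursors. R337W (chromosome 20, position 49230234, plus strand, exon 9 of 21) lay 34 codons before its DEAD box and was edited in 6.25%, 17.4% and 5.17% of 48, 23 and 58 reads. Its 3, 4 and 3 edited reads make the level imprecise. DHX37, which releases the U3 particle from the pre-ribosome, had no recurrent site but reached the gene test through 4 sites. I406I was edited in 24.4% of 41 reads in replicate 1 and 21.05% of 19 reads in replicate 2. R1042C reached 22.2% of 18 reads in replicate 3. I803I had 9.68% in replicate 1 and 17.4% in replicate 3, and I371I had 9.30% in replicate 1. DDX55 L61L reached 17.9% and 12.96% in replicates 2 and 3, DDX31 L783L 9.68% and 14.3% in replicates 1 and 3, and DDX54 L298L 13.04% in replicate 1. DDX55 and DDX54 act on the large ribosomal subunit.

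Of 17 genes listed under translation, export, decay and RNA granules, 8 had a called site and 6 held 13 C-to-U sites. DDX6 and DDX3X had a recurrent site. Of all 5608 genes with a called site, 83.3% had a C-to-U site in at least 1 hA3A-BE3 library and 15.7% a recurrent site. Genes with called sites in hA3A-BE3 libraries only are among those listed, so these counts are a description. DDX6, which joins decapping factors and the CCR4-NOT complex in translational repression and decay, had the other recurrent stop site. Q345X (chromosome 11, position 118757248, minus strand, exon 10 of 14) was edited in 8.87%, 13.6% and 6.67% of 124, 88 and 150 reads, a mean of 9.73% ± 3.56 (SD, n = 3). A protein ending there keeps 344 of 483 residues (71.2%), and the stop falls 99 codons after the first codon of the DEAD box. H365Y, 60 bases away, was called in replicate 2 at 6.06%. DDX3X acts in translation of mRNAs with structured 5' UTRs. Its I471I (chromosome X, position 41346326, plus strand, exon 13 of 17) had the deepest coverage of the recurrent sites, 435, 313 and 480 reads, with 5.52%, 11.5% and 6.88% edited. The Wilson 95% interval of replicate 2, 8.43 to 15.5%, did not reach that of replicate 1, 3.74 to 8.08%, but overlapped that of replicate 3, 4.94 to 9.50%. DDX3Y, a close relative of DDX3X on chromosome Y, had no called site, and whether reads of DDX3X were placed on it was not tested.

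DHX57 was placed with these genes although its role is less well known, and 4 of the 13 sites are its own. It passed the gene test, and F1116F reached 18.2% of 22 reads in replicate 1. DDX20, a part of the SMN complex that assembles spliceosomal particles, was placed here too. It had S331F at 13.04%, Q771X at 10.2% and S505L at 5.04%, all in replicate 3. DDX50 was also counted here, with Q493X alone. The 13 sites are thus those of the list and not of a single role. DHX36, which unwinds G-quadruplexes, had R196W at 7.07% of 99 reads in replicate 2.

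DHX30 is needed for mitochondrial ribosome assembly. Its recurrent I662I (chromosome 3, position 47847329, plus strand, exon 12 of 22) was edited in 15.4%, 28.0% and 30.1% of 65, 50 and 73 reads, a mean of 24.5% ± 7.97 (SD, n = 3). A further 5 sites, among them Q1093X at 14.3% of 21 reads, made it the gene with the most C-to-U sites. DHX9, which unwinds RNA and RNA-DNA hybrids and binds double-stranded RNA in innate sensing, carried L738L (chromosome 1, position 182878036, plus strand, exon 20 of 28). It was edited in 7.41%, 10.5% and 12.8% of 216, 200 and 335 reads, a mean of 10.3% ± 2.72 (SD, n = 3). The RNA sensors DDX58, also known as RIG-I, and DHX58 had no called site, nor had DDX60 and DDX60L. DDX11, a DNA helicase of genome maintenance, also had none.

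The 11 recurrent sites spread from 6.79% ± 1.70 (DDX23) to 49.2% ± 13.9 (DHX38 R12X; SD, n = 3), and 4 of them (36.4%) averaged 20% or more. Of the 1046 other recurrent sites 286 (27.3%) did so. The median of the mean levels was 10.3% for the helicase sites and 13.9% for the others. Per library the helicase sites averaged 14.6%, 20.97% and 17.9%, against 13.8%, 18.9% and 18.7% for the other recurrent sites. Replicate 1 was lowest in both sets.

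C-to-U sites were also counted by family. The 16 DHX genes had 30 C-to-U sites, 15, 13 and 18 per hA3A-BE3 library. The 39 DDX genes had 26, with 8, 15 and 17. Per 1000 cytosines that follow a U in the main transcripts, that is 7.99 distinct sites in DHX genes and 3.28 in DDX genes. DHX genes held more sites in replicates 1 and 3 and fewer in replicate 2, and the difference was not tested. Recurrent sites were found in 5 genes of each kind. Transcripts with more reads give more calls, and the lists hold no expression levels, so the part of expression in this difference was not tested.

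Most sites lay in coding sequence. Of the 56 C-to-U sites 49 (87.5%) were coding, 3 were in 3' UTRs, 3 in 5' UTRs, and 1 was the site in C5orf24. All 23 sites of replicate 1 were coding, as were 82.1% and 88.6% in replicates 2 and 3. For all other C-to-U sites of these libraries, which are not limited to protein-coding genes, the shares were 71.9%, 68.7% and 68.8%. The helicase share was 20.4 ± 7.35 percentage points higher (SD, n = 3 libraries), and it was higher in each of the 3. The exact sign-flip test over libraries gave p = 0.25, the smallest it can give for 3 pairs, so the difference is not shown to exceed the spread.

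The coding changes comprised 25 synonymous ones (51.02%), 16 amino acid substitutions (32.7%) and 8 new stop codons (16.3%). In coding sites of other genes these shares were 49.7%, 35.5% and 14.8%. A synonymous change of an isoleucine codon, ATC to ATT, made up 13 of the 49 (26.5%), against 29.2% elsewhere. It made up 6 of the 11 recurrent sites (54.5%), against 40.5% of the other recurrent coding sites. The stop sites besides DHX38 R12X and DDX6 Q345X were DDX46 R521X, DDX50 Q493X, DDX56 R372X, DHX57 Q1236X, DHX30 Q1093X and DDX20 Q771X, at 5.33% to 14.3%, each in 1 library. Their stops leave from 50.4% (DDX46) to 93.5% (DDX20) of the protein, where DHX38 R12X leaves 0.897%.

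**Figure D2:**
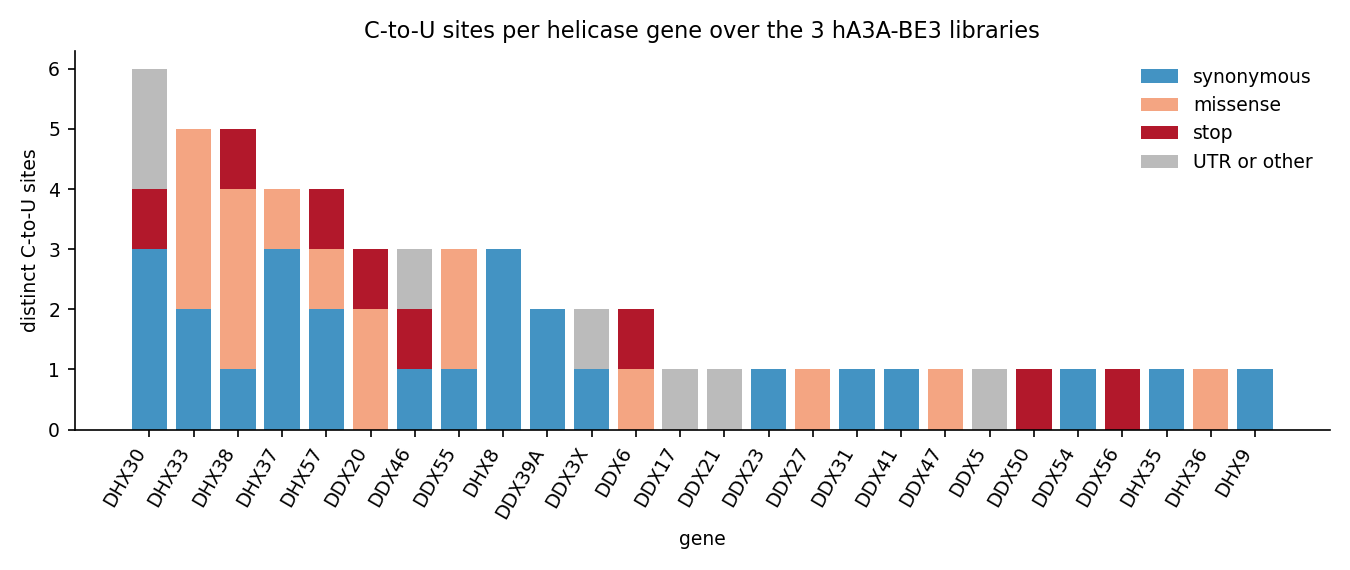
Distinct C-to-U sites in each of the 26 helicase genes that had one, over the 3 hA3A-BE3 libraries, stacked by the change made in the protein. DHX30 led with 6 sites, DHX33 and DHX38 followed with 5 each, and 8 genes held a stop site.

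The box itself gave a common scale along the proteins. A DEAD, DEAH or variant box was found in 54 of the 55 proteins (30 with DEAD, 9 with DEAH and 15 variants), and DHX32 gave no match. Relative to its first codon, 35 of the 49 coding sites (71.4%) lay downstream and 14 upstream. Of the 3207 cytosines after a U in the coding sequences of the same 23 genes, 58.1% lay downstream. Within 10 codons of the box lay 3 sites (6.12%), against 2.12% of those cytosines. The 3 were DHX37 I371I, 1 codon before the box, DHX38 I650I, 2 codons before it, and DDX46 R521X, 8 codons before it. DHX37 I406I lay 2 codons before the Ser-Ala-Thr motif. These windows are shown because the sites sit beside conserved motifs.
DHX37 I371I: tggtgatCATCgacgaggccc
DHX38 I650I: gtgccatCATCatggacgagg
DHX37 I406I: agctgctCATCatgtcggcca
DDX46 R521X: cacaaatCTTCgaagagtgac
In the DHX37 and DHX38 windows the edited C is the third base of an isoleucine codon, so the protein is unchanged. With so few sites these shares are a description.

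**Figure D3:**
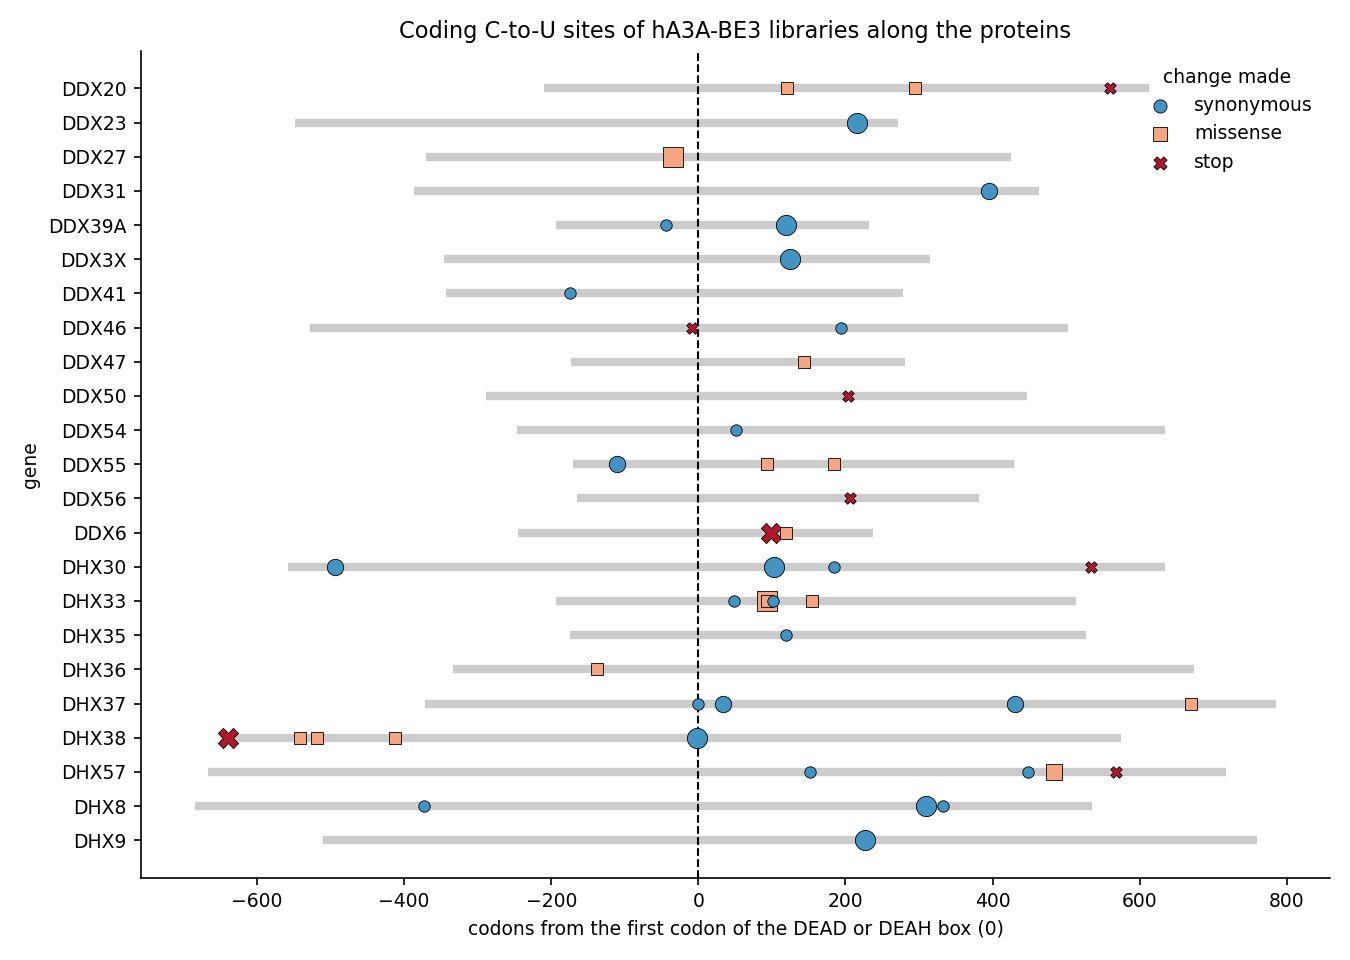
Coding C-to-U sites of hA3A-BE3 libraries along 23 helicase proteins (grey bars, whole protein), aligned at the first codon of the DEAD, DEAH or variant box (dashed line, 0). Marker shape and colour give the change made and larger markers stand for sites called in more of the 3 libraries; 35 of 49 sites lay to the right of the line.

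The bases around the sites were set beside those of the other hA3A-BE3 sites. A U preceded the edited C at 54 of 55 sites with transcript context (98.2%), against 95.3% of the C-to-U sites of other genes. The exception was DDX41 L170L, ataccacATCCtggtggaggg, where a C precedes it. The 4 bases CATC, ending at the edited C, stood at 17 sites (30.9%) and at 7 of the 11 recurrent ones (63.6%). Among other genes they stood at 28.3% of sites and 45.1% of recurrent sites. Only 7.68% of all 11582 cytosines after a U in the main transcripts of the 55 genes had them (transcript strand searched only).

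Many windows could form a small hairpin. At 10 of 55 sites (18.2%) at least 3 consecutive base pairs, G-U pairs allowed, could close a loop of 4 bases that ends at the edited C. The share was 18% at sites of other genes and 5.77% over the 11582 cytosines. Recurrent helicase sites reached 4 of 11 (36.4%), against 31.6% of the other recurrent sites. DHX38 R12X and DHX9 L738L each had 6 such pairs, as 0.363% of the 11582 cytosines did. In the DHX38 window ctcgatcCATCgattggaagg the bases tcgatc and gattgg flank the loop CATC, and in the DHX9 window aagtgaaACTCttcactgctc the bases agtgaa and ttcact flank ACTC. In the predicted minimum energy fold of 41 bases the edited C was in a hairpin loop at 37 of 55 helicase sites (67.3%) and at 67.6% of other sites. It was so at 5 of the 11 recurrent sites (45.5%), against 79.8% of the other recurrent sites and 37.8% of the 11582 cytosines. A fold computed from sequence is a description and was not measured.

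A-to-I sites are the natural product of ADAR enzymes on double-stranded RNA, and in helicase genes they were found in all groups. hA3A-BE3 libraries held 5, 9 and 5, PE3 libraries 0 and 8, Cas9 libraries 3, 0 and 9, EGFP libraries 13, 4 and 9, and non-transfected libraries 13, 11 and 13. hA3A-BE3 libraries averaged 6.33 ± 2.31 (SD, n = 3) against 8.33 ± 4.87 in controls (n = 9), a log2 difference of -0.06 (exact permutation p = 0.827, adjusted p = 1). PE3 libraries averaged 4 ± 5.66 (SD, n = 2), a log2 difference of -1.3 (exact permutation p = 0.255, adjusted p = 0.679). Neither difference exceeded the spread among the pooled controls. The control groups differed among themselves: the non-transfected libraries, at 11 to 13, lay above every hA3A-BE3, PE3 and Cas9 library, and a comparison with that group alone was not tested. Without PE3 replicate 2, which had the fewest mapped bases, 3.26 Gb, the PE3 difference was 0.28.

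The 43 A-to-I sites lay in 9 of the 31 genes with a called site (29.03%), against 25.1% of the 5608 genes. Introns held 29 (67.4%), 3' UTRs 10, a 5' UTR 1, and 3 were outside basic transcripts, while 0 were coding. Of the 43, 41 had another within 100 bases in the same gene. Calls had a median of 18.5 covering reads, against 51.5 for the C-to-U calls of helicase genes, and 21 sites were called in 1 library.

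DDX46 had the most, 14 sites, of which 10 were intronic and 4 in the 3' UTR. EGFP replicate 1 and non-transfected replicate 1 held 7 of them each, hA3A-BE3 libraries 1, 4 and 2, and PE3 libraries 0 and 2. DDX55 had 7, all intronic. The DDX55 site at position 123603822 of chromosome 12 was called in 8 libraries, more than any other helicase site. Its level was 36.4% and 28.0% in hA3A-BE3 replicates 2 and 3 (11 and 25 reads), 19.4%, 21.7% and 9.52% in EGFP libraries, and 5.56%, 6.67% and 10.3% in non-transfected libraries. It was not called in the PE3 or Cas9 libraries. Levels of hA3A-BE3 replicates 2 and 3 were above those of the other libraries with a call, but all rest on few reads. EGFP libraries had 31, 23 and 21 covering reads there, and hA3A-BE3 replicate 1 had no call. No test was made, because the site was missing from 6 libraries and 0 helicase A-to-I sites were called in all 14.

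DHX15, which takes apart spliceosomes at the end of splicing, had 6 intronic sites, 4 of them in EGFP replicate 3. DHX9 had 4, of which 1 was called in all 3 non-transfected libraries and in no other, at 27.3% to 33.3%. DHX34, a factor of nonsense-mediated decay, had the highest A-to-I level, 66.7% to 86.5% at an intronic site (chromosome 19, position 47350319) in 1 Cas9, 1 EGFP and 1 non-transfected library. DDX19A, which acts in mRNA export at the nuclear pore, had 5 sites within 141 bases of its 3' UTR, at 5.77% to 14.3%. DDX19B is a close relative of DDX19A, and whether reads of this 3' UTR are shared between them was not tested. The DDX19A sites called in the most libraries, 3 and 5 of the 14, are shown with the edited A in capitals.
DDX19A position 70372975: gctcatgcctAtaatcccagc
DDX19A position 70373115: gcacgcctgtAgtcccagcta
DDX46 position 134829838: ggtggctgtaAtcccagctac
The DDX46 3' UTR site, in 4 libraries, is set beside them because all 3 windows hold cccagc after the edited base. It was picked for this match, which was not tested. Other 3' UTR windows of DDX19A and DDX46, such as that at DDX19A position 70373049, do not hold it.

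**Figure D4:**
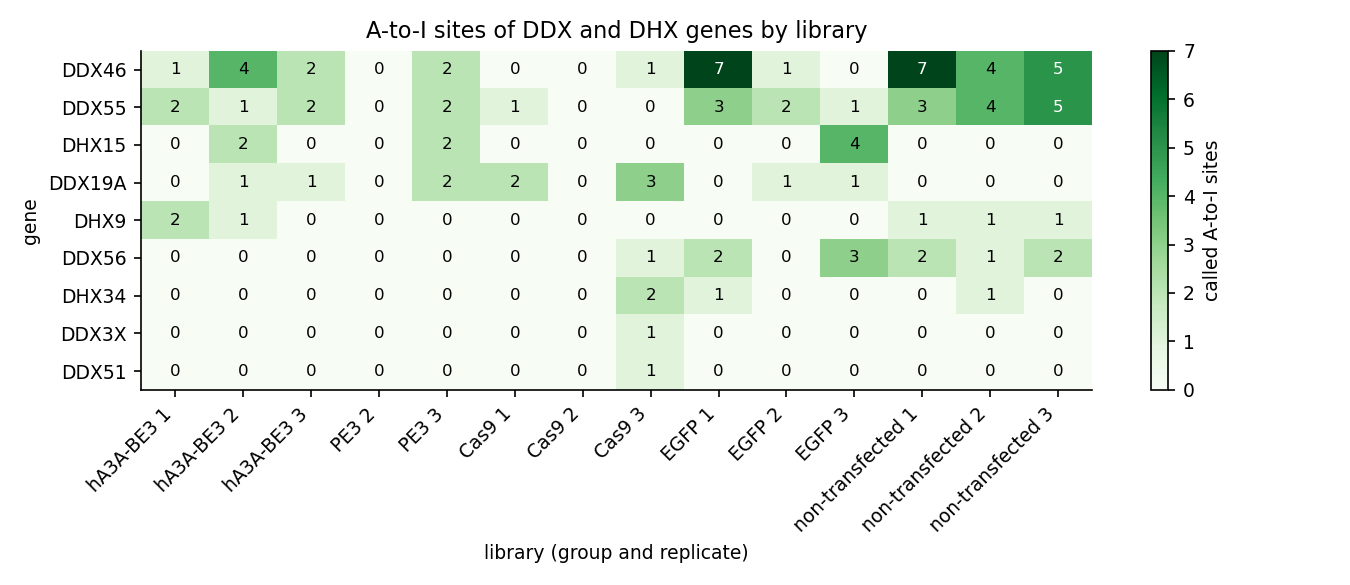
Number of called A-to-I sites for each of the 9 helicase genes with one (rows) in each of the 14 libraries (columns). DDX46 and DDX55 held sites in 10 and 11 libraries, while PE3 replicate 2 and Cas9 replicate 2 held none in any gene.

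Other changes were rare. hA3A-BE3 libraries held 1, 0 and 3 such sites and PE3 libraries 1 and 0. Control libraries held 0 to 3. The log2 difference was 0.49 for hA3A-BE3 (exact permutation p = 0.536, adjusted p = 1) and -0.01 for PE3 (exact permutation p = 1, adjusted p = 1). The 1 such site in a PE3 library was G363R in DDX42, a partner of the U2 particle, a G-to-A change in 7.14% of 42 reads of replicate 2 (chromosome 17, position 63808883, plus strand, coding). It was called in no other library. Of the 9 sites, 3 were neighbouring T-to-C sites in DDX56, outside its basic transcripts, in Cas9 replicate 3 and EGFP replicate 1.

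C-to-U sites of helicases outside the DDX and DHX names, and of partner proteins, were likewise listed in hA3A-BE3 libraries and not in PE3 or control libraries. A list of 22 gene symbols of other RNA helicases held 11, 36 and 28 such sites in hA3A-BE3 libraries and 0 in PE3 and control libraries. The EIF4A genes were among them, and MTREX stood there also under its older symbol SKIV2L2. Of its 11 genes with a called site 5 passed the gene test and 4 had a recurrent site, where 21.6% and 15.7% of all 5608 genes did. ASCC3, which splits collided ribosomes, carried I1993I at 42.1% ± 19.9 and S1564L at 17.4% ± 3.34, and UPF1, the helicase of nonsense-mediated decay, F685F at 20.7% ± 10.8 (SD, n = 3). A list of 31 partner proteins, such as G-patch proteins and MIF4G domain proteins, held 14, 18 and 30 against 0. Of its 18 genes with a called site 6 passed and 3 had a recurrent site, again beside 21.6% and 15.7% of all genes. Genes of both lists were counted through a called site in any library, also in hA3A-BE3 libraries, where C-to-U sites are many. These counts are therefore a description and not support for a difference, and no test set either list apart. CNOT1, the scaffold of the CCR4-NOT complex that binds DDX6, carried R2045W at 18.1% ± 7.82 and the stop site R1640X at 14.4% ± 8.89 (SD, n = 3).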

How the data were processed

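RNA of 14 libraries was analysed. Per the submitters' processing notes, BWA 0.7.17 and GRCh38/hg38 were used; no source used here names the caller. For each library the authors deposited 1 list of sites, without a header. Deposited counts of covering, base and mutated reads were used as they stand, as was the deposited fraction of edited reads. A deposited signal column equals depth over a constant per library, read here as mapped Gb, an inference from the values. Base order and strand were recovered from the values, and 17541 of 17541 exonic sites matched the GENCODE release 29 transcript base.

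Sites took the region and protein change of basic transcripts on their strand (members: principal transcript first). Numbers per library were compared as log2(number + 1) by two-sided exact permutation tests (220 assignments for 3 against 9 libraries, 55 for 2 against 9), with Benjamini-Hochberg adjustment over 8 comparisons, or over 5608 genes, at 0.05, checked on simulated data. Windows were folded with ViennaRNA 2.7.2; Python 3.11.15, NumPy 2.4.6 and SciPy 1.17.1 were used. No pair of libraries shared more than 31.9% of sites, so no list was a copy of another. Libraries made from the same RNA could also share few called sites and are not excluded.

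Members and gene lists were chosen with earlier results of these data known. Named were genes with a recurrent site, up to 6 others with the highest C-to-U level (DDX20 and DDX54 tied for the last place), the 5 with the most A-to-I sites and those with a site private to PE3. Other genes, stop sites, neighbouring sites and sites near the box were chosen after their values were seen. Alternatives were limits on covering reads (20, 50), edited fraction (10%) and mutated reads (5), sites at 90% or more left out, sites of non-transfected cells left out, either strand, scaling, a linear scale, single control groups, a replicate block and each library left out. The site in C5orf24 was left out as an alternative chosen after seeing the data.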

Additional observations from a re-analysis of the deposited data

How the results depend on the processing

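The C-to-U difference between hA3A-BE3 libraries and controls kept its direction under all alternatives. Controls held 0 such sites, so limits on sites, scaling, the replicate block and left-out libraries could not have turned it, and the kept direction is no support. With Cas9, EGFP or non-transfected libraries alone the difference was 4.87 with exact permutation p = 0.1, the smallest 3 against 3 libraries allow. The 13 helicase genes called one by one fell to 0 with at least 50 covering reads, an edited fraction of at least 10%, at least 5 mutated reads or the replicate block, and to 0 to 0 with any library left out; fewer libraries raise the smallest possible p. The 11 recurrent sites became 5 at 50 or more covering reads, 5 when 10% or more had to be edited, 7 with at least 5 mutated reads and 11 to 16 with a library left out. The A-to-I difference for hA3A-BE3 turned to 0.29 at an edited fraction of at least 10%, to 0.86 without the sites of non-transfected cells, but was -1.5 (exact permutation p = 0.2) with at least 20 covering reads and -1.22 (exact permutation p = 0.0909) with at least 5 mutated reads, against -0.06 as reported, and ranged from -0.416 to 0.068 with a library left out. For PE3 it ranged from -2.89 to 0.28, the highest without PE3 replicate 2. For other changes hA3A-BE3 gave -0.009 to 0.991 with a library left out, negative without hA3A-BE3 replicate 3. PE3 gave -0.51 to 0.49, and 0.10 without sites of non-transfected cells, 0.087 per Gb and 0.29 per 1000 A-to-I sites. None of these passed its test, and the cause was not tested. Whether replicate numbers pair the libraries was not settled. Correlations of same-numbered deviations were -0.01 to 0.03 for hA3A-BE3 and -0.04 to 0.25 for PE3. Those of differently numbered libraries were -0.022 to 0.013 and -0.246 to 0.109. With so few libraries this check cannot decide. With the replicate block the C-to-U difference was 4.87 (exact permutation p = 0.0312), that in genes 4.28 (exact permutation p = 0.0312), and that of other changes for PE3 0.24. The test of A-to-I levels and its alternatives were not run, since 0 helicase sites were called in all 14 libraries. Depth limits the levels: several rest on 3 or 4 edited reads.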
